A study of Homo sapiens with 183 samples.

Results

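The subunits of 3 chromatin remodelling complexes, INO80, SRCAP and TIP60, and the 2 genes of the histone variant H2A.Z were followed at the mRNA level across 183 RNA-seq libraries from 9 human cancer cell lines. The members were listed by name as subunits of the complexes, and the choice of these complexes was made with earlier results of these data known. They were grouped as 12 subunits of INO80, 3 of SRCAP and 12 of TIP60, with 1 listed under INO80 and TIP60 (ACTL6A). A further 3 were listed under SRCAP and TIP60 (VPS72, DMAP1 and YEATS4). The others were H2AFZ and H2AFV, which current nomenclature calls H2AZ1 and H2AZ2. The grouping is that of the list used, and a member may belong to further complexes. All 33 of the 19875 genes in the deposited tables were detected well enough to be tested in each of the 16 experiments.

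INO80, SRCAP and TIP60 share an assembly route: RUVBL1 and RUVBL2, a pair of AAA+ ATPases, form a ring that serves as a chaperone for these complexes and as a subunit of the finished machines. SRCAP and TIP60 place H2A.Z into nucleosomes, INO80 slides nucleosomes and evicts H2A.Z, and TIP60 also acetylates histones through KAT5. H2A.Z is found at promoters and enhancers, where it affects how transcription factors and RNA polymerase reach the DNA.

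The study asked what KLF5, a factor of the epithelial lineage, requires of RUVBL1 and RUVBL2 in pancreatic ductal adenocarcinoma. For the knockouts, AsPC-1, BxPC-3, T3M-4, CFPAC-1 and SUIT-2 pancreatic cancer cells that stably expressed Cas9 received guides against KLF5, RUVBL1, RUVBL2, CDK1, RPA3 (sgRpa3 in the labels), CHD4 or SERPINB5, or against the safe-harbour locus Rosa (sgRosa) as control, and were collected on day 5. For inhibition, cells were kept for 24 h in CB-6644, an allosteric inhibitor of the RUVBL1/2 ATPase, or in its solvent DMSO. T84 (colorectal), A-375 (melanoma, A375 in the labels), H1048 (small cell lung cancer of the POU2F3 type) and RH30 (alveolar rhabdomyosarcoma) cells were treated as parental lines, with 4 libraries per arm. AsPC-1 and T3M-4 cells carried a lentiviral empty vector or a vector for 1 of 2 inhibitor-resistant variants, RUVBL1 A62T or RUVBL2 dF109, and each vector had 3 CB-6644 libraries and 1 DMSO library. The 3 DMSO libraries of a line were therefore pooled as the control of that line. The variants were expressed in drug-selected pools in addition to the cells' own RUVBL genes, and no cloning is described for the knockouts. The methods name 2 guides each for KLF5, RUVBL1, RUVBL2 and Rosa, and the labels do not say which guide a library had. The dose of CB-6644 is not in the labels.

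The promoters below are shown for 4 members that moved the same way in all 6 inhibitor comparisons: KAT5, YEATS4 and ACTR5, which fell, and ZNHIT1, which rose. They are RefSeq sequences on GRCh38.p14, read 5′ to 3′ on the strand of the gene up to the base before the start used in the RefSeq promoter table. Capitals mark the motif named on each line, and other matches in these bases, a CCAAT box in ACTR5 and a YY1 core in ZNHIT1, are left in lower case. For KAT5 that start lies inside the gene, whose annotation begins further upstream, and only 30 bases are given.

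KAT5, chr11:65712222-65712251, plus strand, capitals mark an ETS core: gtgacgtctcccagaggggCCGGAAGtggc
YEATS4, chr12:69359493-69359742, plus strand, capitals mark 2 copies of an NRF1 motif: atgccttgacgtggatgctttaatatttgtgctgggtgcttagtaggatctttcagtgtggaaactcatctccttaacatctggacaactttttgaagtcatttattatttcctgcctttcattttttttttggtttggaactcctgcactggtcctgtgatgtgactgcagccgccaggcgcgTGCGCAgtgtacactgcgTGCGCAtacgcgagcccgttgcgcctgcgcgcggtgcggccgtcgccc
ACTR5, chr20:38748210-38748459, plus strand, capitals mark 2 GC boxes: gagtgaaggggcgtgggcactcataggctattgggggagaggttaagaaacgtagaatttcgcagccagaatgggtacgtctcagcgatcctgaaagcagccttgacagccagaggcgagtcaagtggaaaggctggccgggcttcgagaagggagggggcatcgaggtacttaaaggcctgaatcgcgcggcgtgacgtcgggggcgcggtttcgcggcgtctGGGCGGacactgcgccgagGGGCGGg
ZNHIT1, chr7:101217915-101218164, plus strand, capitals mark 2 ETS cores: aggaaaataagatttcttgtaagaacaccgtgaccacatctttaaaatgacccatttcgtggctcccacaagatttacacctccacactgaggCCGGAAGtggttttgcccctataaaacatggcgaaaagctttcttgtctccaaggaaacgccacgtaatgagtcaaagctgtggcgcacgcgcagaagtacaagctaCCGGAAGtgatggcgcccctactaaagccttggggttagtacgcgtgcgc

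Of the 33 members, 28 had an entry among the 27305 promoters searched, each 300 bases long (250 before and 50 after the start), and every motif was searched on both strands. The GC box (GGGCGG) was present in 18 of the 28 member promoters and in 44.6% of all promoters. The ETS core (CCGGAAG) was in 8 members and in 10.7% of all promoters, and the YY1 core (AANATGG) in 9 members and in 15.9% of all promoters. The NRF1 motif (TGCGCA) was in 3 members and in 8.42% of all promoters, the CCAAT box (CCAAT) in 8 and 35.7%, and the E-box (CACGTG) in 2 and 7.43%. The ETS core occurred both in KAT5, which fell, and in ZNHIT1, which rose.

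Each library summed to 1000000 TPM, a scale per transcript length and per library, and held 11292 to 14024 genes at 1 TPM or more. The number of reads is unknown from these values. In the guide checks, mean RUVBL1 fell from 84.2–162 TPM in sgRosa to 31.5–49.99 TPM in sgRUVBL1 libraries, and mean RUVBL2 from 97.8–222 TPM to 42.1–94.0 TPM in sgRUVBL2 libraries. KLF5 mRNA was not lower in most sgKLF5 groups, and in T3M-4 experiment 2 it was 533–604 TPM against 262–400 TPM in sgRosa. The CFPAC-1 libraries labelled sgCDK1 held 194–207 TPM of CDK1 against 206–236 TPM in sgRosa, and those labelled sgRPA3 held 81.0 and 91.9 TPM of CDK1. RPA3 was 30.3–31.7 TPM in the libraries labelled sgRPA3 against 33.2–45.7 TPM in sgRosa. CDK1 thus went against the labels and RPA3 with them. The labels of these 2 groups may be exchanged, and these values do not settle it. Both are named by their labels below, and a direction given for either is that of the libraries so labelled. RUVBL1 was higher by 5.26 in AsPC-1 and 4.18 in T3M-4 (log2) in A62T than in empty-vector cells under CB-6644, and RUVBL2 was higher by 4.06 and 3.17 in dF109 cells. Line markers were read in the control libraries. EPCAM, KRT8, KRT18 and KRT19 were detected in all 5 pancreatic lines and also in T84. The 3 colorectal markers summed to 663–734 TPM in T84 and to 721–1590 TPM in AsPC-1, so they did not separate these lines. The 3 myogenic markers summed to 1387–1506 TPM in RH30. In A-375, 2 of 3 melanoma markers had a median of 1 TPM or more, as in SUIT-2 and H1048. The melanoma markers summed to 233–241 TPM in A-375, against 8.26–13.8 TPM in SUIT-2 and 3.68–4.43 TPM in H1048. In H1048 POU2F3 and AVIL were present while TRPM5 was under 1 TPM. These are bulk measurements, in which fewer cells of a kind and less RNA per cell cannot be told apart. The labels do not say whether replicates were separate cultures, so the p-values measure the spread between these libraries.

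The members differed widely in level in control cells. H2AFZ was the highest of the 33 in each of the 11 sets of control libraries (9 lines, AsPC-1 and T3M-4 with both sgRosa and DMSO), with medians from 609 TPM in AsPC-1 DMSO to 1830 TPM in H1048. MORF4L1 and MORF4L2, paralogous chromodomain-family subunits of TIP60, followed with medians of 185–518 and 185–377 TPM, and H2AFV with 154–356 TPM. The ATPases stood far lower, INO80 at 19.7–34.1 TPM, SRCAP at 17.0–57.3 TPM and EP400 at 12.6–29.9 TPM. The acetyltransferase KAT5 lay at 25.9–53.2 TPM and INO80D was the lowest member at 2.87–9.63 TPM.

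TRRAP, the large scaffold of TIP60 that contacts transcription activators, had the widest range between lines as a ratio of the highest to the lowest median. Its median was 156 TPM in AsPC-1 sgRosa and 174 TPM in AsPC-1 DMSO libraries, against 57.2 TPM in H1048, the next line, and 9.28 TPM in T3M-4 sgRosa. Its 14 AsPC-1 sgRosa libraries ran from 101 to 194 TPM and did not overlap with control libraries of any other line, the highest of which held 58.8 TPM. INO80C, an INO80 subunit, ran from 12.4 TPM in T3M-4 DMSO to 62.1 TPM in BxPC-3. The deubiquitinase UCHL5, which docks on INO80, was highest in A-375 (188 TPM) and H1048 (176 TPM), whose libraries overlapped (184–194 and 169–196 TPM), and lowest in SUIT-2 (32.9 TPM).

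CB-6644 lowered 6 of the 33 members in each of the 6 lines. KAT5 of TIP60 differed by −1.52 to −2.39 on the log2 scale, and the histone-mark reader ING3, also of TIP60, the INO80 subunit MCRS1, the acetyl-lysine reader YEATS4, the H2A.Z chaperone VPS72 and the INO80 actin-like subunit ACTR5 fell as well, while ZNHIT1 of SRCAP rose. Of the ATPase subunits, INO80 fell in 3 lines and SRCAP in 2, and EP400 was higher in 4. The TIP60 subunits EPC1, EPC2 and BRD8 were higher in 5, 4 and 5 lines. Tests were made in limma on log2(TPM + 1), a scale that understates the change of low genes, with p-values adjusted over all genes tested in the experiment. Differences below are log2 differences, CB-6644 minus DMSO, with the standard error.

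In counts, 5 members were higher and 13 lower in AsPC-1, 7 and 13 in T84, 7 and 20 in A-375, 8 and 19 in H1048, 11 and 13 in RH30, and 4 and 9 in T3M-4, where 8 were called in all without the dF109 DMSO library. The members called were 54.5% in AsPC-1, where 64.4% of all genes tested were called. The corresponding shares were 60.6% against 71.4% in T84, 81.8% against 81.1% in A-375, and 81.8% against 77.9% in H1048. They were 72.7% against 77.7% in RH30 and 39.4% against 34.3% in T3M-4. Of all genes, 47.2% were higher and 17.2% lower in AsPC-1, 47.2% and 24.2% in T84, 51.5% and 29.7% in A-375, 53.9% and 24% in H1048, 50.4% and 27.3% in RH30, and 19.1% and 15.2% in T3M-4. On the TPM scale the share of members called was thus below that of all genes in AsPC-1, T84 and RH30 and above it in A-375, H1048 and T3M-4. The members' median was −0.07, −0.04, −0.24, −0.14, −0.05 and −0.16 in the same order, beside 0.19, 0.13, 0.16, 0.18, 0.13 and 0.04 for all genes.

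Because the median of all genes lay above 0, the split of higher against lower members depended on the scaling. When each library was scaled by its median ratio to the average library, the median of all genes became −0.06 in AsPC-1, −0.04 in T84, −0.05 in A-375, −0.02 in H1048, −0.02 in RH30 and −0.05 in T3M-4. The split then became 4 higher and 25 lower in AsPC-1, 2 and 23 in T84, 3 and 28 in A-375, 2 and 26 in H1048, 5 and 22 in RH30, and 1 and 12 in T3M-4. Of all genes under that scaling, 25.4% were higher and 36.6% lower in AsPC-1, 31.4% and 39.6% in T84, 36.4% and 44.1% in A-375, 35.2% and 40% in H1048, 35% and 41.2% in RH30, and 16.5% and 25.2% in T3M-4. The members called were then 87.9% against 62% of all genes in AsPC-1, 75.8% against 71% in T84 and 93.9% against 80.4% in A-375. They were 84.8% against 75.2% in H1048, 81.8% against 76.2% in RH30 and 39.4% against 41.6% in T3M-4. KAT5, ING3, MCRS1, YEATS4, VPS72 and ACTR5 were lower in 6 of 6 lines under both scalings.

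**Figure D1:**
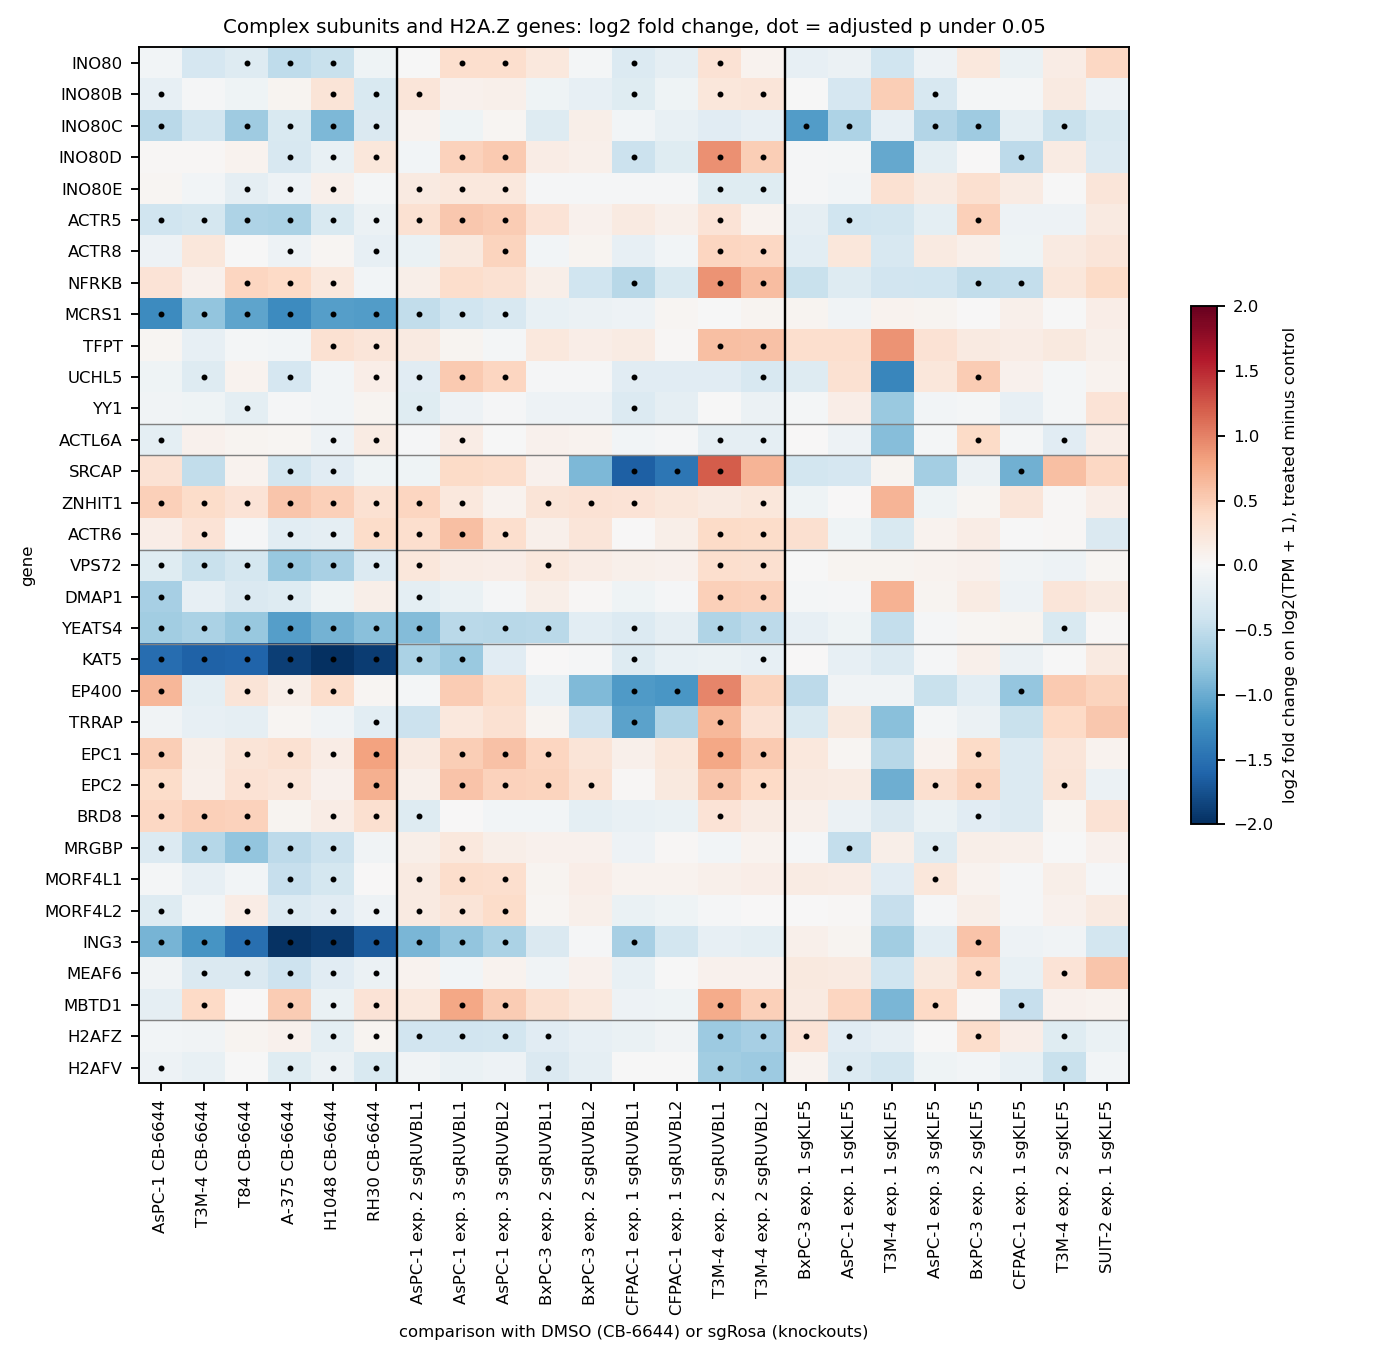
Log2 difference of each of the 33 members (rows, grouped by complex) in the 6 CB-6644, 9 RUVBL1/2 knockout and 8 KLF5 knockout comparisons (columns), blue for lower and red for higher than the control, with a dot where limma's adjusted p was under 0.05. KAT5 and ING3 are the darkest rows in the CB-6644 block, from −1.52 to −2.39 and from −0.92 to −1.98, YEATS4 carries dots in 6 CB-6644 and 7 RUVBL1/2 columns, and INO80C is the only row with 5 dots in the KLF5 block.

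KAT5, the catalytic acetyltransferase of TIP60 (chr11:65712018-65719604 on GRCh38.p14), was the member with the lowest median difference. In H1048 it was 48.6, 52.0, 48.9 and 47.6 TPM with DMSO and 9.42, 8.14, 8.68 and 8.27 TPM with CB-6644, a difference of −2.39 ± 0.05 (adjusted p = 1.08e-11). In A-375 it was 41.3, 43.3, 40.4 and 41.4 TPM against 10.0, 11.3, 12.3 and 8.91 TPM (−1.88 ± 0.08, adjusted p = 1.51e-09). Every inhibitor library lay far below every DMSO library in both lines. In RH30 the values were 23.1, 27.1, 27.7 and 24.6 TPM against 6.37, 7.42, 5.15 and 5.72 TPM (−1.90 ± 0.09, adjusted p = 1.45e-09). In T84 they were 39.1, 42.6, 40.7 and 44.0 TPM against 11.6, 14.1, 12.4 and 13.9 TPM (−1.61 ± 0.07, adjusted p = 3.41e-11). The groups were again apart. In AsPC-1 the 3 DMSO libraries held 53.2, 56.1 and 50.1 TPM and the empty-vector CB-6644 libraries 18.3, 18.4 and 17.1 TPM (−1.52 ± 0.06, adjusted p = 5.07e-09). In T3M-4 they held 44.3, 59.9 and 49.6 TPM against 16.0, 15.9 and 15.8 TPM (−1.62 ± 0.10, adjusted p = 2.93e-06). Of the genes tested, KAT5 had the 3rd lowest difference in H1048 and ranked between 11th and 34th lowest in the other 5 lines.

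ING3, a PHD-finger protein that reads methylated histone H3 and belongs to the TIP60 catalytic module with KAT5, EPC1 and MEAF6, also fell in all 6 lines, and in A-375 by more than KAT5. In A-375 it was 33.2, 28.7, 30.6 and 33.9 TPM with DMSO and 6.99, 7.95, 6.13 and 8.10 TPM with CB-6644 (−1.98 ± 0.08, adjusted p = 1.55e-09). In H1048 it was 32.8, 33.6, 37.5 and 36.1 TPM against 10.6, 8.25, 8.59 and 7.20 TPM (−1.91 ± 0.09, adjusted p = 3.15e-09). ING3 libraries of the arms did not overlap in these lines. In RH30 it was 18.7, 21.2, 20.2 and 19.7 TPM against 5.79, 5.16, 5.60 and 5.66 TPM (−1.68 ± 0.05, adjusted p = 6.76e-11). In T84 it was 12.1, 14.9, 12.5 and 16.2 TPM against 4.51, 4.11, 4.58 and 3.64 TPM (−1.51 ± 0.10, adjusted p = 2.16e-09). The difference was smaller in the pancreatic lines. In AsPC-1 it was 17.4, 16.0 and 13.9 TPM against 8.27, 7.58 and 7.51 TPM (−0.92 ± 0.08, adjusted p = 1.49e-06). T3M-4 had 12.2, 13.6 and 11.6 TPM against 4.94, 4.83 and 5.04 TPM (−1.18 ± 0.11, adjusted p = 2.46e-05).

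MCRS1, a forkhead-associated domain protein of INO80, differed by a similar amount in 5 lines. It was 102, 98.0 and 95.3 TPM with DMSO and 39.3, 40.6 and 41.4 TPM with CB-6644 in AsPC-1 (−1.26 ± 0.05, adjusted p = 5.57e-09). In A-375 it was 90.5, 93.6, 86.6 and 89.6 TPM against 36.0, 37.0, 38.4 and 36.9 TPM (−1.26 ± 0.03, adjusted p = 6.5e-11). No MCRS1 library of one arm reached the range of the other. In T84 it was 108, 105, 107 and 98.9 TPM against 49.2, 50.9, 49.1 and 49.5 TPM (−1.06 ± 0.04, adjusted p = 3.11e-11). In H1048 it was 87.0, 81.7, 79.4 and 79.2 TPM against 37.8, 33.5, 43.8 and 36.4 TPM (−1.10 ± 0.07, adjusted p = 2.5e-08). RH30 had the lowest MCRS1 level in both arms among the parental lines. There it was 51.5, 57.2, 54.9 and 50.3 TPM against 24.7, 26.2, 22.5 and 22.7 TPM (−1.12 ± 0.05, adjusted p = 1.78e-09). In T3M-4 the DMSO libraries were spread, 45.4, 60.7 and 54.0 TPM against 33.5, 31.8 and 26.1 TPM, with the smallest difference (−0.79 ± 0.12, adjusted p = 0.000516).

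YEATS4 (chr12:69359743-69427072), the YEATS-domain reader of acetylated histones in SRCAP and TIP60, fell furthest of the 3 subunits listed under both complexes. In A-375 it was 63.3, 65.0, 60.9 and 58.5 TPM with DMSO and 30.3, 28.3, 27.5 and 27.7 TPM with CB-6644 (−1.10 ± 0.04, adjusted p = 1.01e-09). In H1048 it was 77.3, 71.7, 86.5 and 76.4 TPM against 38.6, 41.2, 37.9 and 43.2 TPM (−0.94 ± 0.06, adjusted p = 2.57e-08). YEATS4 arms did not overlap in these lines. In RH30 it was 46.8, 47.9, 46.1 and 48.0 TPM against 25.4, 25.6, 28.2 and 25.3 TPM (−0.83 ± 0.04, adjusted p = 1.67e-09). In T84 it was 52.0, 46.8, 48.2 and 58.3 TPM against 29.8, 31.7, 29.1 and 28.5 TPM (−0.76 ± 0.07, adjusted p = 5.71e-08). The pancreatic lines gave the smallest differences. AsPC-1 had 24.1, 20.5 and 19.1 TPM against 13.7, 12.1 and 12.2 TPM (−0.70 ± 0.08, adjusted p = 1.52e-05). T3M-4 had 47.5, 42.1 and 41.3 TPM against 27.9, 28.0 and 27.6 TPM (−0.63 ± 0.08, adjusted p = 0.000157).

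VPS72, which carries H2A.Z–H2B dimers within SRCAP and TIP60, fell by 0.25 to 0.75 on the log2 scale. It was lowest relative to control in A-375, at 79.3, 78.9, 78.9 and 78.3 TPM with DMSO and 49.4, 45.4, 44.8 and 45.9 TPM with CB-6644 (−0.75 ± 0.03, adjusted p = 2.87e-09). The third shared subunit, DMAP1, fell in AsPC-1 (−0.66 ± 0.07, adjusted p = 1.06e-05), T84 (−0.28) and A-375 (−0.26), and not in H1048 (−0.09), RH30 (0.11) or T3M-4 (−0.16). ACTR5, the actin-related protein of the INO80 arm that grips the nucleosome, fell from 15.6, 14.4, 14.6 and 14.04 TPM to 9.33, 7.75, 10.0 and 9.62 TPM in A-375 (−0.63 ± 0.07, adjusted p = 7.51e-06). Its smallest differences were −0.12 ± 0.04 in RH30 (adjusted p = 0.0135) and −0.35 ± 0.10 in T3M-4 (adjusted p = 0.0226), and the T3M-4 call was lost when single libraries were left out. VPS72 and ACTR5 libraries did not overlap between arms in any of the 6 lines.

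Smaller members of the same complexes also fell. INO80C, a small non-catalytic subunit, fell in 5 of 6 lines, furthest in H1048, from 43.2, 43.2, 43.2 and 42.0 TPM to 24.4, 23.8, 21.2 and 21.3 TPM (−0.89 ± 0.05, adjusted p = 1.18e-08), and was −0.37 ± 0.15 in T3M-4 (adjusted p = 0.0826). MRGBP, which tethers MORF4L1 to TIP60, fell in 5 lines, furthest in T84, from 48.0, 45.7, 45.7 and 45.8 TPM to 25.8, 28.4, 26.3 and 25.2 TPM (−0.79 ± 0.05, adjusted p = 3.57e-09), and was −0.07 in RH30. Neither gene overlapped between arms where it was called. MEAF6, a small subunit of several acetyltransferase complexes, fell in 5 lines by 0.11 to 0.41 and was −0.07 in AsPC-1. MORF4L2 fell in 4 lines by 0.11 to 0.28 and rose in T84 by 0.16, a value that became −0.03 under median-of-ratios scaling.

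**Figure D2:**
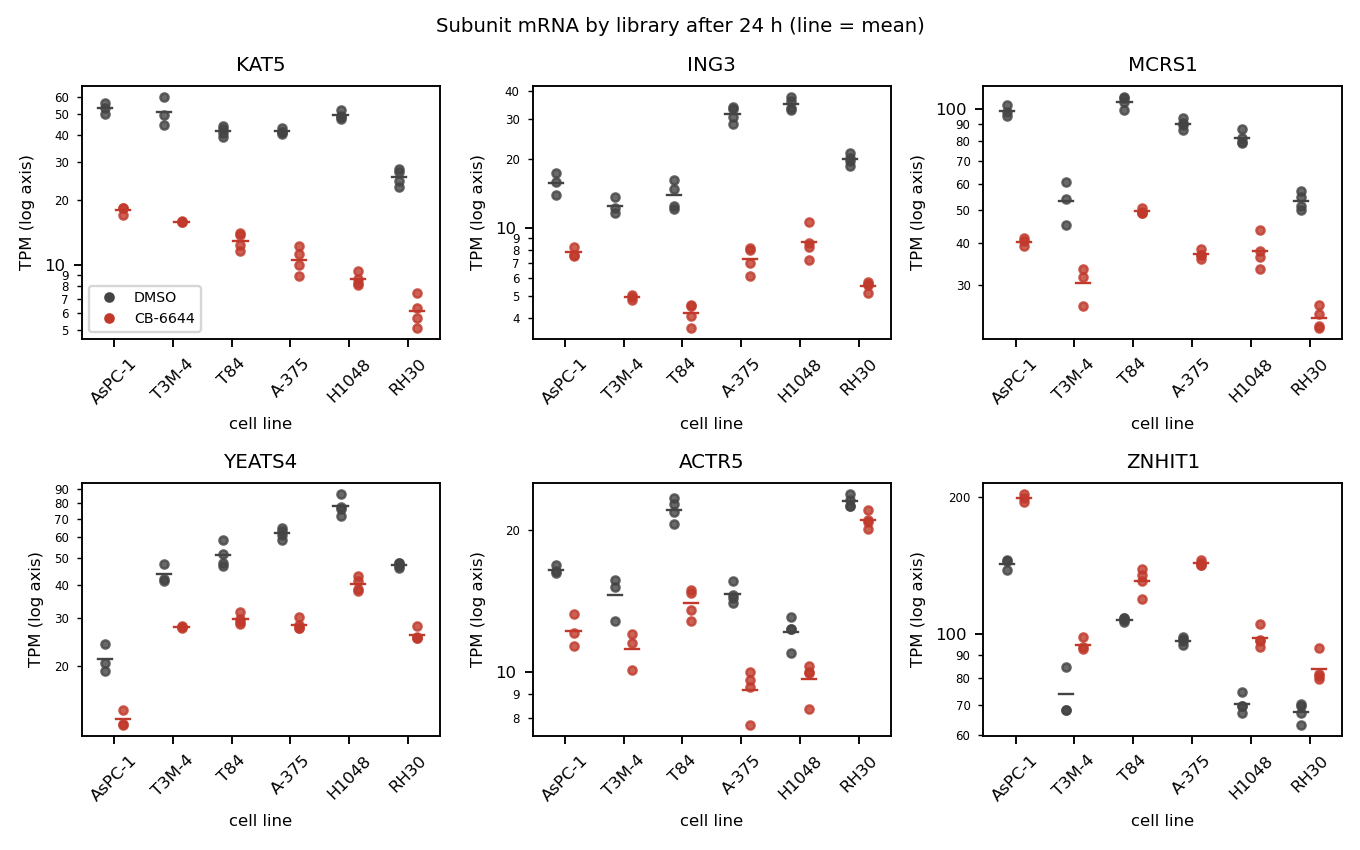
TPM of 6 subunits (log axes) in each library after 24 h in DMSO (grey) or CB-6644 (red), by cell line, with a bar at each mean. In AsPC-1 and T3M-4 the grey points are the DMSO libraries of the 3 vectors and the red points the empty-vector cells; KAT5 falls to 8.14–9.42 TPM in H1048 from 47.6–52.0 TPM, and ZNHIT1 is the panel in which the red points lie above the grey ones in all 6 lines.

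ZNHIT1 (chr7:101218165-101224190), a zinc-finger subunit needed for H2A.Z deposition by SRCAP, rose in all 6 lines, and in 4 of them under median-of-ratios scaling, where the T84 and T3M-4 calls were lost. It was 97.4, 98.6, 94.5 and 96.6 TPM with DMSO and 144, 142, 142 and 146 TPM with CB-6644 in A-375 (0.56 ± 0.02, adjusted p = 2.28e-09). In AsPC-1 it was 146, 138 and 145 TPM against 195, 203 and 199.6 TPM (0.48, adjusted p = 1.37e-06). The arms did not overlap in any line. In H1048 it was 69.6, 69.4, 74.5 and 67.1 TPM against 97.2, 93.8, 105 and 96.3 TPM, a difference of 0.48. In RH30 it was 63.2, 69.4, 67.2 and 70.1 TPM against 80.9, 79.7, 93.4 and 81.8 TPM, a difference of 0.31. The third SRCAP subunit, ACTR6, was higher in RH30 (0.37) and T3M-4 (0.28) and lower in A-375 (−0.21).

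Of the scaffold subunits of TIP60, EPC1 and EPC2, paralogous enhancer-of-polycomb proteins that hold the acetyltransferase module together, were higher in 5 and 4 lines. EPC1 went from 24.0, 23.2, 23.9 and 23.1 TPM to 42.6, 40.9, 41.3 and 41.7 TPM in RH30 (0.80 ± 0.03, adjusted p = 4.6e-10). EPC2 went from 20.6, 20.0, 20.4 and 19.5 TPM to 33.6, 32.7, 35.0 and 33.6 TPM in the same line (0.72 ± 0.04, adjusted p = 3.31e-09). RH30 was set apart from the other lines, where EPC1 differed by 0.11 to 0.49 and EPC2 by 0.09 to 0.37. Under median-of-ratios scaling EPC1 was higher in 2 lines and EPC2 higher in 1 and lower in 1. The bromodomain subunit BRD8 was higher in 5 lines by 0.15 to 0.47, and in 4 higher and 1 lower under that scaling. NFRKB, an INO80 subunit that binds UCHL5, and MBTD1, a reader of methylated H4 in TIP60, were each higher in 3 lines, and MBTD1 lower in 1.

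Among the catalytic ATPases, INO80 fell in T84 (−0.26), A-375 (−0.51) and H1048 (−0.44), and under median-of-ratios scaling in all 6 lines. In A-375 it was 24.1, 24.3, 23.6 and 23.9 TPM with DMSO and 16.8, 16.4, 16.4 and 16.7 TPM with CB-6644. SRCAP fell in A-375, from 59.3, 58.5, 55.4 and 54.8 TPM to 43.8, 44.3, 44.8 and 43.7 TPM (−0.36), and in H1048 (−0.23). INO80 and SRCAP libraries did not overlap between arms in A-375. EP400 was higher in AsPC-1 (0.67, adjusted p = 0.0194, lost without empty-vector CB-6644 replicate 3 or the dF109 DMSO library), T84 (0.25), A-375 (0.12) and H1048 (0.35), and under that scaling was higher in 2 lines and lower in 2. On the TPM scale TRRAP fell in RH30 alone, from 37.1–39.9 to 30.9–34.4 TPM. Under median-of-ratios scaling TRRAP was lower in 5 of 6 lines and SRCAP in 3.

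The H2A.Z genes moved little with the inhibitor. H2AFZ was lower in H1048, at 1588–1637 TPM with CB-6644 against 1816–1897 TPM with DMSO (−0.20, adjusted p = 1.05e-05). It was higher in A-375, at 1177–1226 against 1106–1151 TPM (0.09, adjusted p = 0.00253), and in RH30, at 1206–1243 against 1160–1195 TPM (0.06, adjusted p = 0.015). These arms did not overlap, but under median-of-ratios scaling the A-375 and RH30 values turned to −0.13 and −0.11 and H2AFZ was lower in 5 of 6 lines, and the RH30 call was lost without DMSO replicate 1. H2AFV fell in AsPC-1 (−0.10), A-375 (−0.24), H1048 (−0.11) and RH30 (−0.30). The remaining members were INO80B, INO80D, INO80E, ACTR8, TFPT, UCHL5, YY1, ACTL6A and MORF4L1. On the TPM scale each was called in 1 to 3 lines, with differences between −0.46 and 0.31. Under median-of-ratios scaling INO80E, ACTR8, UCHL5, YY1 and MORF4L1 were each lower in 5 of 6 lines. INO80B, TFPT and ACTL6A were then lower in 4 and INO80D in 3, and each of these members was higher in 0.

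The resistance variants were compared with the empty vector under CB-6644 in AsPC-1 and T3M-4. This sets cells with a resistant variant beside cells with only the inhibitor-sensitive RUVBL1/2 ring. No vector for unmutated RUVBL1 or RUVBL2 was among the libraries, so resistance and the higher RUVBL expression cannot be told apart. The same empty-vector libraries served both variants. In AsPC-1, 14 members were higher and 2 lower with A62T (48.5% called, against 51.1% of all genes), and 15 and 5 with dF109 (60.6% against 47.2%). In T3M-4, 20 were higher and 3 lower with A62T (69.7% against 50.6%), and 13 and 0 with dF109 (39.4% against 34.6%). Of all genes, 18.9% were higher and 32.3% lower with A62T in AsPC-1, 20.9% and 26.3% with dF109, and in T3M-4 41.4% and 9.21%, and 29.8% and 4.86%. Under median-of-ratios scaling the member splits were 21 and 1, 18 and 2, 12 and 5, and 6 and 2. All genes then stood at 30.3% higher and 22% lower, 28.5% and 22%, 22.7% and 20.6%, and 14.2% and 11.8% in the same order.

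KAT5 was higher with both variants. With CB-6644 in AsPC-1 it was 18.3, 18.4 and 17.1 TPM in empty-vector cells, 49.4, 45.6 and 48.4 TPM with A62T and 35.1, 33.6 and 35.0 TPM with dF109. The differences were 1.37 ± 0.06 for A62T (adjusted p = 1.82e-08) and 0.91 ± 0.06 for dF109 (adjusted p = 4.9e-07). The 3 vectors did not overlap, with dF109 between the empty vector and A62T. In T3M-4 it was 16.0, 15.9 and 15.8 TPM, 54.6, 53.1 and 52.6 TPM, and 36.8, 36.9 and 37.8 TPM in the same order of vectors. The differences there were 1.69 ± 0.10 (adjusted p = 8.27e-06) and 1.18 ± 0.10 (adjusted p = 0.000146). The order of the vectors was the same in both lines.

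ING3 followed the same order. In AsPC-1 it was 8.27, 7.58 and 7.51 TPM in empty-vector cells, 13.8, 14.1 and 14.4 TPM with A62T and 10.3, 10.2 and 9.86 TPM with dF109, differences of 0.78 and 0.34. In T3M-4 it was 4.94, 4.83 and 5.04 TPM, 11.1, 11.4 and 10.5 TPM, and 8.72, 7.26 and 9.44 TPM, differences of 1.02 and 0.67. MCRS1 was 39.3, 40.6 and 41.4 TPM, 91.0, 87.7 and 91.7 TPM, and 76.5, 80.3 and 72.3 TPM in AsPC-1, differences of 1.14 and 0.90. Again the vectors were apart in each line. In T3M-4 MCRS1 was 33.5, 31.8 and 26.1 TPM, 60.9, 54.3 and 60.8 TPM, and 46.9, 47.0 and 44.2 TPM, differences of 0.93 and 0.59 (adjusted p = 0.00602 for dF109).

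YEATS4 was higher by 0.48 with A62T and 0.36 with dF109 in AsPC-1, and by 0.45 with each in T3M-4, where median-of-ratios scaling reduced the values to 0.17 and 0.21 and removed both calls. DMAP1 was 15.9, 15.1 and 18.4 TPM in AsPC-1 empty-vector cells, 30.8, 29.3 and 31.6 TPM with A62T and 26.5, 29.0 and 26.3 TPM with dF109, and was higher with A62T in T3M-4 as well (0.71). ZNHIT1, which CB-6644 raised, was lower with both variants in AsPC-1 (−0.44 and −0.42) and with A62T in T3M-4 (−0.33). It was −0.22 with dF109 in T3M-4 (adjusted p = 0.074), which median-of-ratios scaling moved to −0.47 with a call. EPC1 was lower with both variants in AsPC-1 (−0.28 and −0.45), and TFPT with dF109 (−0.25).

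**Figure D3:**
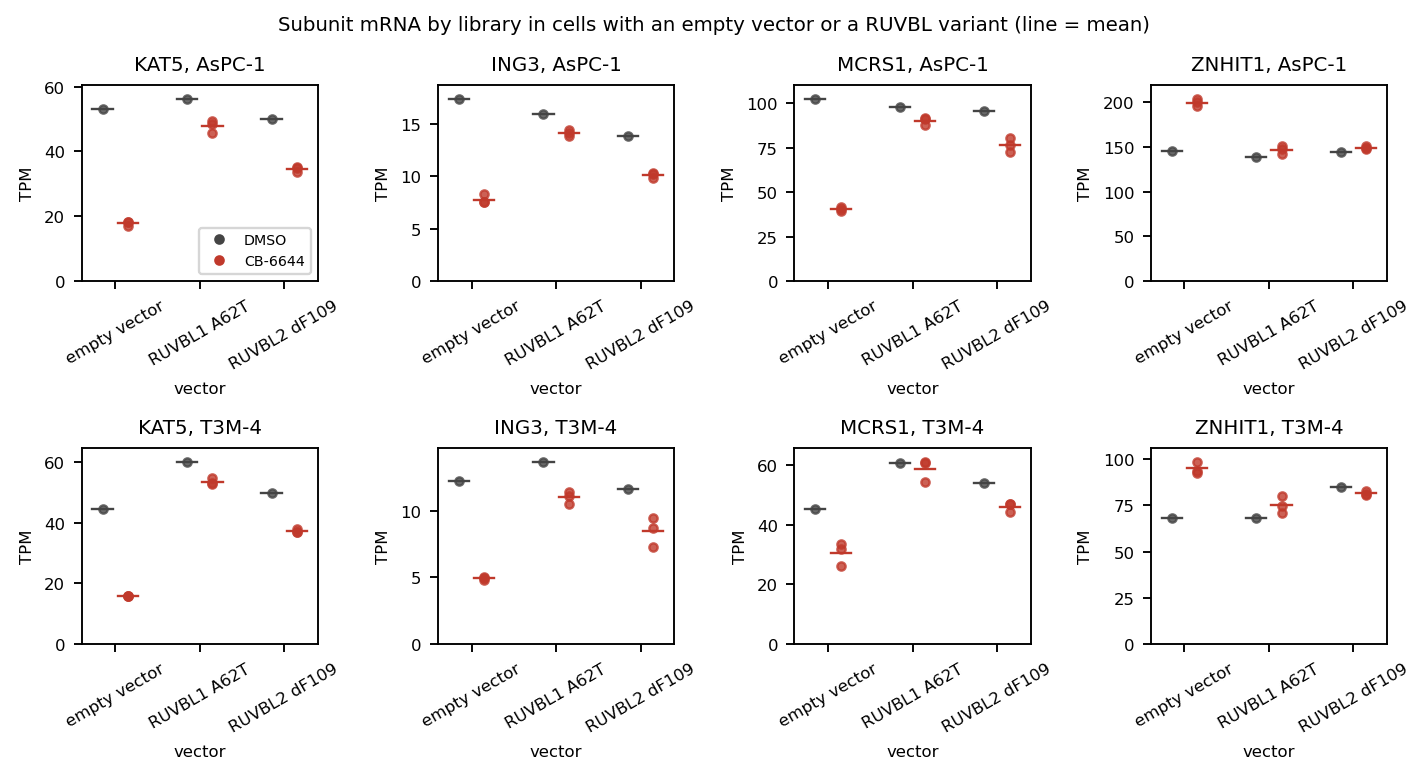
TPM of KAT5, ING3, MCRS1 and ZNHIT1 in each AsPC-1 (top) and T3M-4 (bottom) library, by vector, in DMSO (grey, 1 library per vector) or CB-6644 (red, 3 per vector, bar at the mean). KAT5 in AsPC-1 reads 17.1–18.4 TPM in empty-vector cells under CB-6644, 33.6–35.1 TPM with RUVBL2 dF109 and 45.6–49.4 TPM with RUVBL1 A62T, and ZNHIT1 runs the other way.

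Against DMSO, dF109 cells still had lower KAT5 and ING3 in both lines, and in A62T cells neither was called on the TPM scale. With dF109, KAT5 was still lower in AsPC-1 (−0.61 ± 0.06, adjusted p = 0.000281) and T3M-4 (−0.44 ± 0.10, adjusted p = 0.00769), as was ING3 (−0.58, adjusted p = 0.00107, and −0.52, adjusted p = 0.00628). MCRS1 and YEATS4 were lower with dF109 in AsPC-1 (−0.36 and −0.34) and not called in T3M-4 (−0.20 and −0.17). With A62T, KAT5 was −0.15 in AsPC-1 (adjusted p = 0.102) and 0.07 in T3M-4 (adjusted p = 0.556). Median-of-ratios scaling moved these to −0.29 and −0.31, and ING3 to −0.27 and −0.53, all 4 called lower. In AsPC-1, 2 members were higher and 0 lower with A62T (6.06% called, against 12.7% of all genes), and 6 higher and 6 lower with dF109 (36.4% against 33.4%). In T3M-4 the counts were 10 and 2 with A62T (36.4% against 50%) and 7 and 2 with dF109 (27.3% against 37.6%). Of all genes, 10.8% were higher and 1.98% lower in the AsPC-1 A62T comparison, 29.3% and 4.1% in that of dF109, and in T3M-4 45.4% and 4.6%, and 34.3% and 3.34%. Scaled by median ratios, the member counts were 0 and 6, 0 and 13, 1 and 12, and 0 and 12. All genes under that scaling were 5.3% higher and 8.53% lower, 11.7% and 19.9%, 10.3% and 18.7%, and 8.59% and 15.9%. With the single DMSO library of the same vector as control, the A62T counts went from 2 to 0 in AsPC-1 and from 12 to 0 in T3M-4. Leaving out 1 library moved the AsPC-1 counts to between 0 and 5 with A62T and 6 and 13 with dF109, and the T3M-4 counts to between 5 and 18 and 3 and 14.

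H2AFZ was lower against DMSO in AsPC-1 with dF109 (−0.28) and in T3M-4 with A62T (−0.40), where H2AFV was lower too (−0.15). MBTD1, EPC2 and BRD8 were each higher in 3 of the 4 comparisons, and in 0 after median-of-ratios scaling. INO80 was higher with A62T in AsPC-1 (0.26) and in 2 of the 4 comparisons, and in 0 after scaling, while SRCAP was called in none of the 4 (0.42 to 0.88) and EP400 in 1. In T3M-4, A62T libraries had more SRCAP (1.37, adjusted p = 0.0141) and EP400 (1.05, adjusted p = 0.0319) than empty-vector libraries under CB-6644. SRCAP in that empty-vector group was 27.1, 15.9 and 6.20 TPM, and in DMSO 15.3, 31.3 and 17.0 TPM, so single libraries of 1 group differed as much as the groups. The EP400 call was lost without any 1 of the A62T libraries or empty-vector replicate 2 or 3.

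Knockout of RUVBL1 or RUVBL2 gave member calls that differed from line to line. YEATS4 was lower in 7 of 9 comparisons and H2AFZ in 6, ING3 and KAT5 in 4 each, while EPC2 and ZNHIT1 were higher in 6 and EPC1 and ACTR6 in 5. The sgRUVBL1 and sgRUVBL2 groups of an experiment share their sgRosa libraries. In AsPC-1 8 members were higher and 9 lower with sgRUVBL1 in experiment 2 (51.5% called, against 55.8% of all genes). In experiment 3 the counts were 14 and 5 with sgRUVBL1 (57.6% against 51.9%) and 12 and 4 with sgRUVBL2 (48.5% against 43.2%). BxPC-3 had 4 and 3 with sgRUVBL1 (21.2% against 16% of all genes) and 2 and 0 with sgRUVBL2 (6.06% against 9.76%). CFPAC-1 had 1 and 12 with sgRUVBL1 (39.4% against 43.8%) and 0 and 2 with sgRUVBL2 (6.06% against 12.1%). T3M-4 had 17 and 5 with sgRUVBL1 (66.7% against 60.5%) and 12 and 7 with sgRUVBL2 (57.6% against 54.5%). Single libraries moved the smaller counts. BxPC-3 sgRUVBL1 went to 4 calls without sgRosa replicate 2, and BxPC-3 sgRUVBL2 to 7 without its replicate 2, to 0 without its replicate 3 or sgRosa replicate 3 and to 1 without any other sgRosa library. CFPAC-1 sgRUVBL1 went to 6 without its replicate 1 and 8 without sgRosa replicate 1, and sgRUVBL2 to 0 without its replicate 1 and 4 without sgRosa replicate 4. In a fit of the compared groups alone, the counts were 14 and 12 in T3M-4 sgRUVBL1 and sgRUVBL2, 7 in CFPAC-1 sgRUVBL1, and 0 in sgRUVBL2 of BxPC-3 and of CFPAC-1.

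Of all genes, 30% were higher and 25.8% lower in AsPC-1 experiment 2, and 36.6% and 15.2%, and 32.2% and 11%, with sgRUVBL1 and sgRUVBL2 in experiment 3. The corresponding shares were 8.29% and 7.67%, and 4.27% and 5.48%, in BxPC-3, 6.54% and 37.3%, and 2.83% and 9.26%, in CFPAC-1, and 45.9% and 14.6%, and 39.3% and 15.2%, in T3M-4. The shares of members called lay near those of all genes tested, and the directions moved with the median of all genes, which was −0.20 in CFPAC-1 sgRUVBL1, 0.25 and 0.19 in T3M-4 and 0.16 and 0.13 in AsPC-1 experiment 3. Under median-of-ratios scaling, which brought those medians to within 0.02 of 0, the counts higher and lower were 6 and 5 in CFPAC-1 sgRUVBL1. They were 5 and 13 in T3M-4 sgRUVBL1 and 8 and 11 in sgRUVBL2, and 9 and 10 in AsPC-1 experiment 3 sgRUVBL1 and 7 and 8 in sgRUVBL2. All genes under that scaling were 19.2% higher and 16.9% lower in CFPAC-1 sgRUVBL1, 26.4% and 29.8%, and 24.7% and 28.3%, in T3M-4, and 23.4% and 26.5%, and 18.9% and 21.9%, in AsPC-1. The sgRUVBL2 counts became 3 and 0 in BxPC-3 (7.59% and 6.43% of all genes) and stayed at 0 and 2 in CFPAC-1 (5.22% and 5.98%). Of 10 proliferation markers such as MKI67 and TOP2A, 3 to 10 were lower in each of the 9 comparisons and 0 higher, with medians from −0.23 to −0.88, and the part of this in the subunit changes was not tested.

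YEATS4 was lower with sgRUVBL1 in all 4 lines. In AsPC-1 experiment 2 it was 35.5, 31.2, 38.8 and 34.8 TPM in sgRosa and 15.4, 18.9, 22.4 and 19.0 TPM in sgRUVBL1 (−0.86 ± 0.10, adjusted p = 3.1e-06). T3M-4 had 54.5, 50.2, 48.3 and 54.5 TPM against 34.9, 32.3 and 34.1 TPM in sgRUVBL1 (−0.60 ± 0.11, adjusted p = 0.000203) and 34.5, 34.8, 35.9 and 37.3 TPM in sgRUVBL2 (−0.53 ± 0.10, adjusted p = 0.000375). The knockout libraries lay below all controls in both experiments. In AsPC-1 experiment 3 it was 26.6, 23.4, 23.1 and 24.7 TPM against 15.9, 16.0, 17.8 and 16.2 TPM in sgRUVBL1 (−0.54 ± 0.14, adjusted p = 0.00328) and 16.6, 24.0, 15.1 and 11.7 TPM in sgRUVBL2 (−0.56 ± 0.14, adjusted p = 0.00359). In the last group 1 library reached the control range. In BxPC-3 it was 36.7, 29.3, 27.9 and 32.8 TPM against 21.9, 19.8, 23.8 and 20.6 TPM in sgRUVBL1 (−0.53 ± 0.10, adjusted p = 0.00131). The sgRUVBL2 libraries of BxPC-3, at 30.8, 23.7 and 27.6 TPM, overlapped with controls (−0.20). In CFPAC-1 it was 40.8, 39.5, 39.4 and 51.1 TPM against 31.3, 37.8, 38.8 and 33.1 TPM in sgRUVBL1 (−0.27, adjusted p = 0.0311), which scaling reduced to −0.05 without a call and which was also lost without sgRosa replicate 4 or sgRUVBL1 replicate 1 or 4.

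H2AFZ, the main H2A.Z gene by level, was lower in T3M-4, AsPC-1 and BxPC-3. The T3M-4 libraries held 1136, 1053, 965 and 1086 TPM in sgRosa, 651, 606 and 659 TPM in sgRUVBL1 (−0.73 ± 0.06, adjusted p = 6.84e-08) and 686, 617, 669 and 689 TPM in sgRUVBL2 (−0.67 ± 0.06, adjusted p = 6.44e-08). In AsPC-1 experiment 2 it was 977, 924, 973 and 956 TPM against 758, 751, 706 and 714 TPM in sgRUVBL1 (−0.39 ± 0.05, adjusted p = 4.94e-06). The arms were apart in both lines. In AsPC-1 experiment 3 it was 594, 547, 557 and 535 TPM against 428, 415, 435 and 441 TPM in sgRUVBL1 (−0.38, adjusted p = 9.55e-05) and 474, 469, 409.7 and 389 TPM in sgRUVBL2 (−0.36, adjusted p = 0.000232). BxPC-3 sgRUVBL1, at 490.5–573 TPM against 564–685 TPM, overlapped and its call was lost under scaling (−0.23, adjusted p = 0.0292). CFPAC-1 was not called with either guide (−0.13 and −0.07).

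H2AFV was lower in T3M-4, from 244, 236, 229 and 231 TPM to 149.8, 134 and 150.04 TPM in sgRUVBL1 (−0.70 ± 0.06, adjusted p = 1.17e-07) and 135, 147, 149 and 134 TPM in sgRUVBL2 (−0.73 ± 0.06, adjusted p = 2.5e-08). It was also lower in BxPC-3 sgRUVBL1, from 188, 177, 174 and 157 TPM to 137, 139.7, 143 and 150.3 TPM (−0.28, adjusted p = 0.00297). Both H2A.Z genes were thus lower in T3M-4 with either guide, without overlap between knockout and control. Elsewhere H2AFV was between −0.18 and 0.

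**Figure D4:**
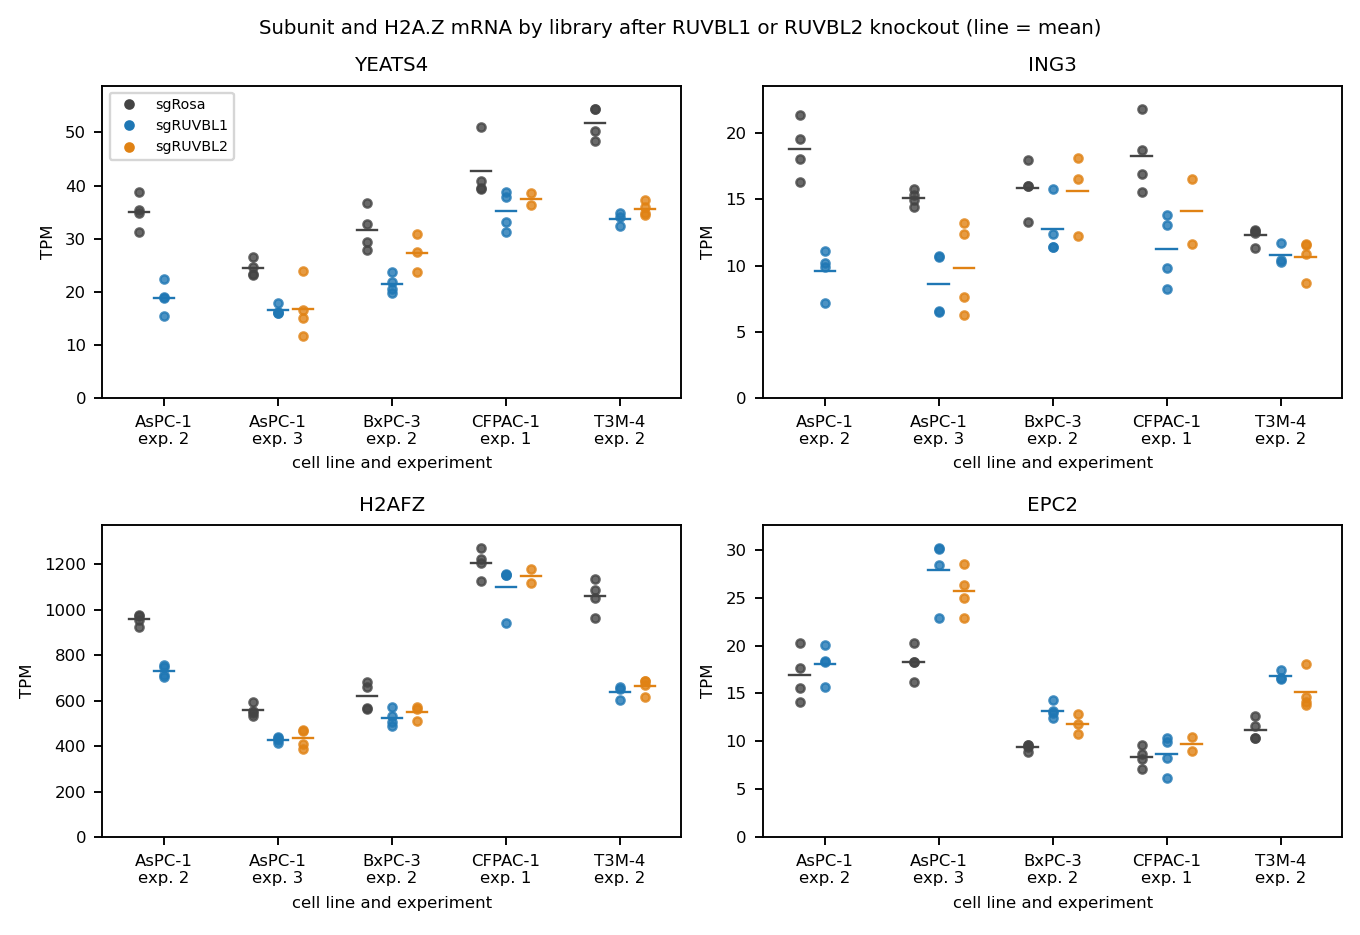
TPM of YEATS4, ING3, H2AFZ and EPC2 in each sgRosa (grey), sgRUVBL1 (blue) and sgRUVBL2 (orange) library, by cell line and experiment, with a bar at each mean. H2AFZ in T3M-4 drops from 965–1136 TPM to 606–689 TPM, whereas in CFPAC-1 the sgRUVBL1 libraries, at 943–1155 TPM, overlap with sgRosa at 1125–1271 TPM.

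ING3 and KAT5, the members with the lowest median differences with the inhibitor, had their largest knockout differences in AsPC-1. Each was lower in 4 of 9 knockout comparisons, and under median-of-ratios scaling in 6 (ING3) and 5 (KAT5). ING3 was 18.0, 16.3, 21.4 and 19.5 TPM in sgRosa and 7.16, 11.1, 10.2 and 9.90 TPM in sgRUVBL1 of experiment 2 (−0.91 ± 0.12, adjusted p = 8.38e-06). In experiment 3 it was 15.3, 14.4, 14.98 and 15.8 TPM against 6.53, 6.47, 10.7 and 10.7 TPM in sgRUVBL1 (−0.78, adjusted p = 0.00179) and 6.25, 7.59, 13.2 and 12.4 TPM in sgRUVBL2 (−0.63, adjusted p = 0.0108). Knockout groups in experiment 3 held 2 lower and 2 higher libraries, all below the controls. In CFPAC-1 ING3 was 21.8, 15.6, 18.7 and 16.9 TPM against 8.22, 9.83, 13.8 and 13.1 TPM in sgRUVBL1 (−0.67, adjusted p = 0.00247). In T3M-4 it was −0.17 and −0.19, neither called.

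KAT5 was 48.4, 46.5, 47.3 and 43.1 TPM in sgRosa of AsPC-1 experiment 2 and 28.3, 30.3, 30.9 and 29.0 TPM in sgRUVBL1 (−0.63 ± 0.07, adjusted p = 1.83e-06). In experiment 3 it was 51.5, 49.4, 47.7 and 47.6 TPM against 24.5, 24.1, 30.8 and 38.3 TPM in sgRUVBL1 (−0.74 ± 0.10, adjusted p = 1.09e-05) and 42.8, 43.4, 38.6 and 41.7 TPM in sgRUVBL2 (−0.23, adjusted p = 0.074). All sgRUVBL2 libraries lay below the sgRosa range without passing the test. In T3M-4 the KAT5 difference was −0.14 with sgRUVBL1 (adjusted p = 0.0921) and −0.16 with sgRUVBL2 (adjusted p = 0.0378, lost when any 1 of 5 libraries was left out), and in BxPC-3 0.01 and −0.03. In CFPAC-1 it was −0.26 with sgRUVBL1 (adjusted p = 0.0365, lost without sgRosa replicate 1 or 3 or sgRUVBL1 replicate 1) and −0.16 with sgRUVBL2 (adjusted p = 0.415). MCRS1 was lower in AsPC-1 (−0.49, −0.40 and −0.32) and in no other line, and after median-of-ratios scaling in 4 of 9 comparisons.

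The enhancer-of-polycomb pair rose in most knockout comparisons. EPC2 was 18.3, 16.2, 20.2 and 18.3 TPM in sgRosa of AsPC-1 experiment 3, 30.1, 30.03, 28.4 and 22.8 TPM in sgRUVBL1 (0.58) and 22.8, 25.0, 26.3 and 28.5 TPM in sgRUVBL2 (0.47). In T3M-4 EPC2 was 10.4, 11.6, 12.6 and 10.3 TPM against 16.6, 17.5 and 16.6 TPM in sgRUVBL1 (0.55) and 14.6, 18.1, 14.2 and 13.8 TPM in sgRUVBL2 (0.40). No knockout library fell into the control range. In BxPC-3 EPC2 was 8.89, 9.59, 9.42 and 9.62 TPM against 14.3, 13.1, 13.0 and 12.4 TPM in sgRUVBL1 (0.45), and 0.30 in sgRUVBL2 (adjusted p = 0.0498). EPC1 in AsPC-1 experiment 3 was 20.7, 19.9, 21.2 and 18.7 TPM against 31.5, 30.7, 27.4 and 25.8 TPM in sgRUVBL1 (0.50) and 28.8, 35.9, 28.7 and 30.6 TPM in sgRUVBL2 (0.59). In T3M-4 EPC1 was 8.64, 11.3, 11.5 and 7.82 TPM against 15.4, 18.4 and 18.1 TPM in sgRUVBL1 (0.77 ± 0.13, adjusted p = 8.73e-05) and 11.8, 15.5, 14.4 and 16.0 TPM in sgRUVBL2 (0.52). Each gene was higher in 6 of 9 comparisons under median-of-ratios scaling.

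ACTR5, lower with the inhibitor, was higher with knockout in AsPC-1. It was 17.7, 15.1, 18.4 and 18.0 TPM in sgRosa of experiment 2 and 21.4, 22.6, 21.0 and 21.3 TPM in sgRUVBL1 (0.30). In experiment 3 it was 16.6, 17.5, 16.4 and 14.9 TPM against 24.1, 25.7, 24.5 and 22.9 TPM in sgRUVBL1 (0.54) and 21.3, 32.1, 22.9 and 20.2 TPM in sgRUVBL2 (0.52). The ACTR5 arms did not overlap in AsPC-1, and the gene was called higher in 4 of 9 comparisons under both scalings. The inhibitor and knockout experiments differ in duration, vector and controls, so their values are set side by side and were not compared by a test.

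ZNHIT1 was 144, 151, 139.5 and 146 TPM in sgRosa of AsPC-1 experiment 2 and 202, 186, 194 and 205 TPM in sgRUVBL1 (0.43, adjusted p = 2.12e-05), with no overlap. Its other called differences were 0.21 to 0.29, and 3 of the 6 calls held under median-of-ratios scaling. ACTR6, the actin-related protein of SRCAP, was 16.0, 12.9, 14.7 and 12.6 TPM in sgRosa of AsPC-1 experiment 3 and 22.01, 24.4, 20.9 and 19.4 TPM in sgRUVBL1 (0.59). It rose in 5 of 9 comparisons, 3 of them under that scaling. INO80 was higher in AsPC-1 experiment 3 (0.33 and 0.33) and T3M-4 sgRUVBL1 (0.29) and lower in CFPAC-1 sgRUVBL1 (−0.28), the last lost under scaling.

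SRCAP, EP400, TRRAP and NFRKB varied together from library to library. By the longest annotated transcript of each gene, the longest members are INO80D (14128 bases), TRRAP (12677), EP400 (12289) and SRCAP (11905), and NFRKB has 5173 bases. SRCAP was 29.2, 29.7, 29.6 and 12.4 TPM in CFPAC-1 sgRosa, 6.18, 8.08, 8.33 and 5.86 TPM in sgRUVBL1 (−1.63 ± 0.21, adjusted p = 6.71e-05) and 7.79 and 8.43 TPM in sgRUVBL2 (−1.45, adjusted p = 0.00445). EP400 was 18.1, 18.0, 18.4 and 8.22 TPM, 5.91, 6.98, 7.12 and 5.399 TPM (−1.13, adjusted p = 0.00032), and 5.53 and 6.84 TPM (−1.16, adjusted p = 0.00613) in the same groups. Both genes were low in sgRosa replicate 4, yet above all knockout libraries. In T3M-4 the direction was opposite: SRCAP was 26.4, 36.3, 38.6 and 4.54 TPM in sgRosa and 46.5, 50.4 and 50.9 TPM in sgRUVBL1 (1.21 ± 0.47, adjusted p = 0.0359). That call was lost without sgRosa replicate 4, without any 1 of the 3 sgRUVBL1 libraries and under median-of-ratios scaling, and the CFPAC-1 sgRUVBL2 calls of both genes were lost without sgRUVBL2 replicate 1. The sgRUVBL2 libraries of T3M-4, at 17.9, 49.2, 37.7 and 39.0 TPM, overlapped with sgRosa.

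TRRAP was 20.1, 22.8, 20.6 and 14.5 TPM in CFPAC-1 sgRosa and 5.85, 12.5, 7.76 and 9.89 TPM in sgRUVBL1 (−1.06, adjusted p = 0.000262). NFRKB was 32.3, 31.7, 30.1 and 18.5 TPM against 16.0, 21.5, 17.5 and 19.0 TPM in the same groups (−0.55, adjusted p = 0.00488), where sgRosa replicate 4 lay inside the knockout range. In T3M-4 NFRKB was 26.0, 30.4, 31.8 and 13.3 TPM against 44.9, 47.8 and 45.3 TPM in sgRUVBL1 (0.90, adjusted p = 0.00214). In BxPC-3 sgRUVBL2, SRCAP was 22.9, 34.0 and 4.21 TPM and EP400 17.0, 26.7 and 3.85 TPM, with the same library lowest for both.

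Within groups of 2 or more replicates (177 libraries in 53 groups), SRCAP deviated from its group mean with an SD of 0.548 on the log2 scale, more than 99.3% of the 13931 genes examined, whose median SD was 0.19. EP400 followed with 0.468. Over these deviations the correlation with SRCAP was 0.988 for EP400, 0.955 for NFRKB and 0.882 for TRRAP, against a median of 0.401 over all genes. Without the 2 libraries with the largest SRCAP deviations (T3M-4 experiment 2 sgRosa replicate 4 at −1.98 and SUIT-2 sgRosa replicate 1 at −2.39) the values were 0.988, 0.946 and 0.868. The correlation with the median of the longest 10% of genes was 0.734 for SRCAP, 0.767 for EP400, 0.824 for NFRKB and 0.93 for TRRAP. The points share libraries, so these are descriptions. Transcript length moved with the comparisons too: the longest 10% of genes had a median of −0.43 in CFPAC-1 sgRUVBL1, with 11 higher and 732 lower, and of 0.42 in T3M-4 sgRUVBL1. Within groups, the correlation with the median of the longest genes was also 0.881 for INO80, 0.878 for MBTD1 and 0.862 for EPC1. It was 0.857 for YY1, 0.854 for BRD8 and 0.852 for EPC2, and −0.668 for TFPT and −0.772 for ZNHIT1. Whether length or RNA quality had a part in the group differences of these 4 subunits or of any other member was not tested.

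**Figure D5:**
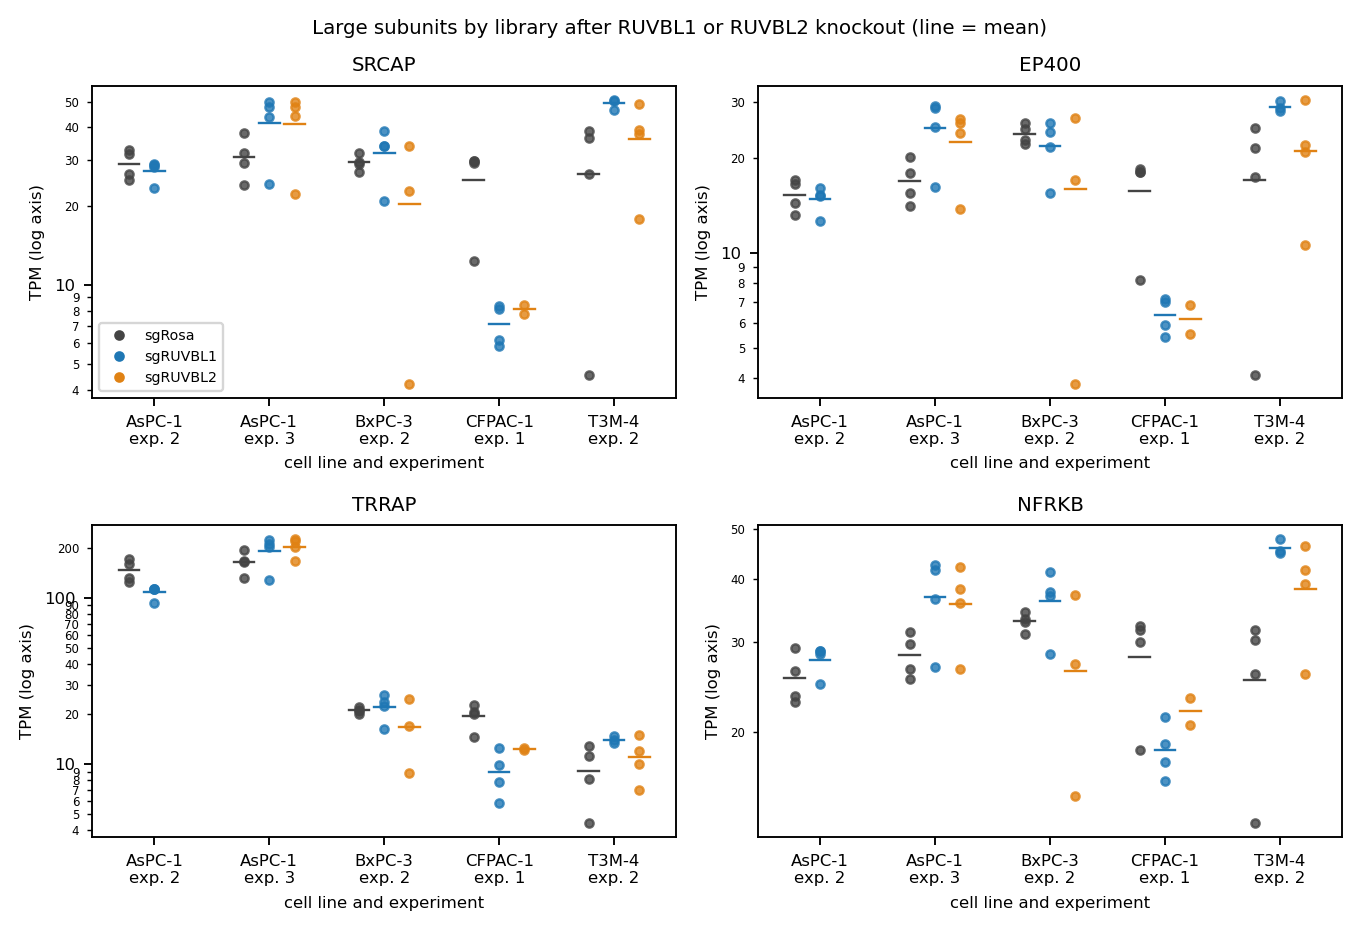
TPM (log axes) of SRCAP, EP400, TRRAP and NFRKB in each sgRosa (grey), sgRUVBL1 (blue) and sgRUVBL2 (orange) library, with a bar at each mean. Single libraries stand far from their group in all 4 panels, such as T3M-4 sgRosa replicate 4 at 4.54 TPM of SRCAP, and TRRAP in AsPC-1 lies near 100–200 TPM while other lines hold under 30 TPM.

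To see what set RUVBL1/2 loss apart from other knockouts of the same experiment, the mean of sgRUVBL1 and sgRUVBL2 was set against that of sgCDK1 and sgRPA3, genes of the cell cycle and of replication, and against sgKLF5. In AsPC-1 experiment 3, 15 members were higher and 6 lower than with CDK1 or RPA3 loss (63.6% called, against 52.7% of all genes), and 17 and 7 than with KLF5 loss (72.7% against 61.2%). BxPC-3 gave 9 and 3 (36.4% against 26.5%) and 2 and 10 (36.4% against 47.6%). T3M-4 gave 8 and 4 (36.4% against 46.8%) and 12 and 5 (51.5% against 49.7%). Against CDK1 or RPA3 loss 33.5% of all genes were higher and 19.2% lower in AsPC-1, 12.3% and 14.1% in BxPC-3 and 28.3% and 18.4% in T3M-4, and against KLF5 loss 41% and 20.2%, 18.2% and 29.4%, and 31.6% and 18.2%. Median-of-ratios scaling evened the member splits to 10 and 9 and 12 and 10 in AsPC-1, and to 5 and 5 and 6 and 9 in T3M-4. In BxPC-3 it gave 6 and 8 against KLF5 loss, but 10 and 0 against CDK1 or RPA3 loss. All genes under that scaling were 24.3% higher and 28.5% lower and 29% and 30.6% in AsPC-1, and 23.7% and 24.5% and 23.9% and 27.5% in T3M-4. In BxPC-3 they were 24.6% and 25% against KLF5 loss, and 15.8% and 15.4% against CDK1 or RPA3 loss. The BxPC-3 count against CDK1 or RPA3 loss went from 12 to 5, 6 and 3 without sgCDK1 replicate 1, sgCDK1 replicate 2 and sgRPA3 replicate 2, and the T3M-4 counts to 7 without sgCDK1 replicate 2 and, against KLF5 loss, to 11 without sgKLF5 replicate 4. YEATS4 was lower than with CDK1 or RPA3 loss in AsPC-1 (−0.60, adjusted p = 0.000398) and T3M-4 (−0.59, adjusted p = 5.99e-05), and lower than with KLF5 loss in both lines (−0.52, adjusted p = 0.00113, and −0.26, adjusted p = 0.0239).

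H2AFZ was lower than with CDK1 or RPA3 loss in AsPC-1 (−0.58, adjusted p = 1.8e-07) and T3M-4 (−0.30), and lower than with KLF5 loss in T3M-4 (−0.46) and BxPC-3 (−0.54, adjusted p = 1.24e-06). Against sgRosa, H2AFZ was itself higher with sgCDK1 in AsPC-1 (0.41) and with sgKLF5 in BxPC-3 experiment 2 (0.34). In T3M-4 experiment 2 it was lower with sgCDK1, sgRPA3 and sgKLF5. ING3 was lower than with KLF5 loss in AsPC-1 (−0.49, adjusted p = 0.0136) and BxPC-3 (−0.74, adjusted p = 2.2e-05). Against sgRosa, ING3 in BxPC-3 was called higher with sgKLF5 (0.58) and was not called with sgRUVBL1 or sgRUVBL2. ACTR5 was higher in AsPC-1 against both (0.76 and 0.73), as were ACTR6 (0.65 against CDK1 or RPA3 loss) and MBTD1 (0.60). In T3M-4 the largest positive differences were DMAP1 (0.53), TFPT (0.50) and EPC2 (0.37) against CDK1 or RPA3 loss, and INO80D (0.54), NFRKB (0.54) and MBTD1 (0.52) against KLF5 loss. In BxPC-3, EPC2 (0.29), EPC1 (0.29) and ACTR6 (0.26) led against CDK1 or RPA3 loss, and INO80C (0.63) against KLF5 loss. INO80C was itself lower with sgKLF5 than with sgRosa in that experiment (−0.71).

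Knockout of KLF5 gave few member calls, and INO80C was the member called most often. Of the 33 members, 0 were higher and 5 lower in AsPC-1 experiment 1 (15.2% called, against 25.9% of all genes), 3 and 3 in experiment 3 (18.2% against 27.8%), 1 and 1 in BxPC-3 experiment 1 (6.06% against 16.2%) and 8 and 3 in experiment 2 (33.3% against 34.6%). CFPAC-1 had 0 and 5 (15.2% against 16.2%) and T3M-4 experiment 2 had 2 and 5 (21.2% against 34.6%). By limma no member was called in SUIT-2, where 3.94% of genes were and 1 member had an unadjusted p under 0.05, or in T3M-4 experiment 1, where 5.72% of genes were and 3 members had one. With the replicate number as a block, members were called in T3M-4 experiment 1. Of all genes, 17.1% were higher and 8.81% lower in AsPC-1 experiment 1, 15.4% and 12.3% in experiment 3, 8.09% and 8.1% in BxPC-3 experiment 1, 21% and 13.6% in experiment 2, 3.26% and 13% in CFPAC-1, and 23.4% and 11.2% in T3M-4 experiment 2. In each of the 8 comparisons the members' share on the TPM scale lay below that of all genes. Median-of-ratios scaling gave 0 and 8 in AsPC-1 experiment 1 (14.7% of all genes higher and 14.6% lower), 4 and 4 in experiment 3 (15.3% and 15.2%), 1 and 2 in BxPC-3 experiment 1 (9.02% and 9.33%) and 8 and 3 in experiment 2 (18.2% and 18.3%). It gave 1 and 2 in T3M-4 experiment 1 (9.45% and 10.5%), 0 and 8 in experiment 2 (16.8% and 20.9%), and 3 and 4 in CFPAC-1 (8.45% and 6.91%), where the members' share, 21.2%, was then above the 15.4% of all genes. The T3M-4 experiment 1 count went from 0 to 8 without sgKLF5 replicate 2, the AsPC-1 experiment 1 count to 2, 3 and 9 without sgRosa replicate 1, sgRosa replicate 2 and sgKLF5 replicate 4, and that of BxPC-3 experiment 1 to 1 without either sgRosa library. The CFPAC-1 count went to 1 or 2 without any 1 of sgKLF5 replicates 1 to 3 and sgRosa replicates 1 and 3, that of T3M-4 experiment 2 to 4 without sgKLF5 replicate 1 or 2 or sgRosa replicate 4, and that of SUIT-2 to 1 without sgRosa replicate 1.

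INO80C (chr18:35468333-35497960) was lower in 5 of 8 comparisons, under both scalings. In BxPC-3 experiment 1 it was 60.5 and 52.4 TPM in sgRosa and 26.5, 24.2, 28.1 and 23.7 TPM in sgKLF5 (−1.11 ± 0.11, adjusted p = 9.38e-05). In BxPC-3 experiment 2 it was 63.6, 67.0, 65.0 and 60.5 TPM against 32.4, 37.2, 45.1 and 41.7 TPM (−0.71 ± 0.09, adjusted p = 1.71e-05). Every sgKLF5 library of BxPC-3 lay below every control. In AsPC-1 experiment 1 it was 61.5 and 64.4 TPM in sgRosa and 37.3 to 43.4 TPM in the 6 sgKLF5 libraries (−0.62 ± 0.08, adjusted p = 0.000186). In AsPC-1 experiment 3 it was 45.6, 40.6, 47.4 and 52.6 TPM against 30.5, 32.1, 30.04 and 29.4 TPM (−0.59 ± 0.09, adjusted p = 3.73e-05). AsPC-1 arms were likewise apart. In T3M-4 experiment 2 it was 13.9, 12.7, 14.4 and 13.1 TPM against 7.04, 9.44, 12.7 and 10.4 TPM (−0.44 ± 0.13, adjusted p = 0.0163), a call that was lost without sgKLF5 replicate 1. It was −0.19 in CFPAC-1, −0.30 in SUIT-2 (adjusted p = 0.409) and −0.16 in T3M-4 experiment 1 (adjusted p = 0.656). After RUVBL1 or RUVBL2 knockout INO80C was called in 0 of 9 comparisons on the TPM scale, and lower in 3 after scaling.

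The H2A.Z genes had no common direction after KLF5 knockout. H2AFZ was lower in AsPC-1 experiment 1 (−0.23) and T3M-4 experiment 2 (−0.24) and higher in BxPC-3 in both experiments (0.27 and 0.34), and the calls of AsPC-1 and of BxPC-3 experiment 1 were lost without either of their 2 sgRosa libraries. H2AFV was lower in AsPC-1 experiment 1 (−0.27) and T3M-4 experiment 2 (−0.45). INO80 and KAT5 were called in 0 of 8 comparisons, between −0.39 and 0.41 and between −0.27 and 0.19, and SRCAP and EP400 in CFPAC-1 alone (−0.96 and −0.77). MRGBP was lower in AsPC-1 (−0.47 and −0.26), EPC2 higher in 3 comparisons (0.25 to 0.45) and MEAF6 in 2 (0.41 and 0.28).

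Loss of CDK1 or RPA3 touched few members. Across 10 comparisons 0 to 7 members were called. AsPC-1 sgCDK1 had 4 higher and 3 lower (21.2% against 16.7% of all genes), and BxPC-3 experiment 2 sgRPA3 had 0 and 4 (12.1% against 20.8%). T3M-4 experiment 2 had 2 and 2 with sgCDK1 (12.1% against 16.8%) and 2 and 1 with sgRPA3 (9.09% against 24.6%), and the CFPAC-1 libraries labelled sgRPA3 had 0 and 1 (3.03% against 11.6%). Of all genes, 10.3% were higher and 6.44% lower in the first of these, 9.12% and 11.6% in the BxPC-3 one, 13% and 3.85% and then 18.4% and 6.2% in those of T3M-4, and 8.17% and 3.39% in that of CFPAC-1. Under median-of-ratios scaling the T3M-4 member counts were 0 and 3 and 2 and 7 (7.03% of all genes higher and 10% lower, and 11.3% and 16.3%), those of BxPC-3 sgRPA3 0 and 2 (10.4% and 13%) and those of the CFPAC-1 libraries labelled sgRPA3 0 and 4 (4.72% and 7.09%). AsPC-1 sgCDK1 then had 2 higher and 6 lower (10.3% and 8.1% of all genes). In the other 5 comparisons limma called 0 members and 0% to 5.82% of all genes, and 0 to 4 members had an unadjusted p under 0.05. The treated group had 2 libraries in each of the 10 comparisons, and AsPC-1 sgCDK1 went to 2 and 1 without its replicate 1 or 2, and BxPC-3 sgRPA3 to 2 and 1. H2AFZ was the member called most often. It was lower in BxPC-3 experiment 2 sgRPA3 (−0.61), the CFPAC-1 libraries labelled sgRPA3 (−0.39) and T3M-4 experiment 2 sgCDK1 (−0.41) and sgRPA3 (−0.39), and higher in AsPC-1 sgCDK1 (0.41). H2AFV was lower in T3M-4 sgCDK1 (−0.42) and KAT5 in AsPC-1 sgCDK1 (−0.49). INO80, SRCAP and EP400 were called in 0 of 10.

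CHD4, the remodelling ATPase of the NuRD complex, was targeted in AsPC-1, where CHD4 mRNA was 61.7–97.5 TPM in sgCHD4 and 65.1–69.1 TPM in sgRosa. In these libraries 9 members were higher and 6 lower (45.5% called, against 50% of all genes, 23.3% higher and 26.7% lower), a share near that of all genes. ACTR5 fell from 16.7, 17.1, 16.4 and 15.2 TPM to 9.97, 9.88, 9.18 and 9.98 TPM without overlap (−0.69, adjusted p = 1.4e-05). INO80 itself fell by 0.44, YY1 by 0.30, INO80E by 0.25, INO80B by 0.23 and the TIP60 subunit MORF4L2 by 0.21. TFPT (0.43), INO80C (0.42) and ACTR8 (0.31), also of INO80, rose, as did H2AFV (0.25) and H2AFZ (0.12). ZNHIT1 (0.21), MRGBP (0.21), VPS72 (0.14) and MORF4L1 (0.13) were higher too. The H2AFZ, ZNHIT1 and VPS72 calls were lost under median-of-ratios scaling. It gave 7 members higher and 7 lower, beside 25.8% and 26.7% of all genes. On the TPM scale KAT5, SRCAP and EP400 did not pass the test. Median-of-ratios scaling added a higher call for KAT5 (0.14) and a lower call for INO80D (−0.31). With sgSERPINB5, which lowered SERPINB5 itself to 61.0–79.8 TPM from 168–199.9 TPM, limma called 0 members and 0.0343% of all genes, and 1 member had an unadjusted p under 0.05.

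Other genes of these pathways gave a frame for the members. Of 9 further genes of H2A.Z handling, ANP32E, a chaperone that removes H2A.Z from nucleosomes, was lower in all 6 CB-6644 lines, by 0.55 in T84 to 1.53 in A-375, and in 8 of 9 RUVBL1/2 knockout comparisons, the exception being BxPC-3 sgRUVBL2 (−0.34, adjusted p = 0.051). ACTB, the actin that sits in all 3 complexes as well as in SWI/SNF, fell in all 6 inhibitor lines, by 0.73 to 1.22. Of 18 subunits of SWI/SNF, a remodeller of another family, 5 were higher and 7 lower in AsPC-1 with CB-6644, 6 and 10 in T84, 5 and 11 in A-375, 2 and 9 in H1048, 6 and 9 in RH30 and 0 and 4 in T3M-4. Its core subunit SMARCB1 fell in all 6 lines, by 0.48 to 1.22, and SMARCE1 in all 6 by 0.32 to 0.70. After RUVBL1/2 knockout, SWI/SNF subunits were called 0 times higher and 12 and 5 times lower in CFPAC-1, 5 and 3 times higher and 0 lower in T3M-4, and 0 times in BxPC-3. AsPC-1 is not included in these knockout counts. With sgRUVBL1 and sgRUVBL2, 37.3% and 9.26% of all genes were lower in CFPAC-1, and 45.9% and 39.3% higher in T3M-4. In BxPC-3 16% and 9.76% were called. For the inhibitor, the shares of all genes are those set beside the members above. The inhibitor's median over the SWI/SNF subunits lay between −0.23 and −0.01, beside −0.24 to −0.04 over the 33 members.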

How the data were processed

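mRNA was measured by RNA-seq of 183 libraries from 9 human cancer cell lines, in 59 groups taken from the labels. The authors pseudoaligned reads with kallisto to an hg38 transcriptome, removed low-abundance transcripts, summed to genes with tximport and deposited TPM in 8 tables. The kit does not mark strand, so reads of overlapping antisense genes cannot be told apart. TPM is not a count, so no count model was used and the depth is unknown. Identical libraries were searched for, and 0 pairs were found.

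All libraries of an experiment (16 fits) entered one limma 3.58.1 model (R 4.3.3) with a mean-variance trend on log2(TPM + 1), for genes with a mean of 1 TPM or more. Tests were two-sided with Benjamini-Hochberg adjustment over all genes tested and a threshold of 0.05, over 49 comparisons (39 with a control and 10 between treatments). Scripts were tested on simulated data. Tables and plots used Python 3.11.15, pandas 2.3.3 and matplotlib 3.10.9.

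The members and gene lists were chosen with earlier results of these data known. Named were members called in the same direction in at least 50% of a family's comparisons, the 3 highest and 3 lowest medians among those called in 2 or more, the 3 largest differences each way between treatments, and H2AFZ, H2AFV, INO80, SRCAP, EP400 and KAT5 throughout; further members were named to account for all 33, and TRRAP, NFRKB, ANP32E, ACTB, SMARCB1 and SMARCE1 were chosen after their values were seen. Alternatives were a pseudocount of 0.1, no filter, median-of-ratios scaling, a replicate block, the DMSO library of the same vector, the compared groups alone and leaving out each library. The replicate numbers did not pair the samples.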

Additional observations from a re-analysis of the deposited data

Results flagged for a closer look

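In 12 of 197 combinations of a named gene and a group of 4 or more libraries (6.09%, where chance gives about 5%), 1 library lay apart from the others. The combinations share libraries, and the distance was measured as the gap of that library to the nearest library over the range of the group. With CB-6644, replicate 3 of H1048 was lowest for ACTR5 (ratio 0.837), and replicate 3 of RH30 was highest for YEATS4 (0.89) and for ZNHIT1 (0.844). In AsPC-1 experiment 2, sgRUVBL1 replicate 1 was lowest for SRCAP (0.863) and TRRAP (0.953). In AsPC-1 experiment 3, sgRUVBL1 replicate 3 was highest for YEATS4 (0.875) and sgRUVBL2 replicate 2 was highest for H2AFV (0.914). In CFPAC-1, sgRUVBL1 replicate 2 was lowest for H2AFZ (0.98), and sgRosa replicate 4 was highest for YEATS4 (0.877) and lowest for SRCAP (0.973) and EP400 (0.966). In T3M-4 experiment 2, sgRosa replicate 4 was lowest for ING3 (0.85).

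For 21 pairs of a member and a contrast, calls without overlap between arms had opposite directions in different lines or experiments. The difference between lines was not tested, and values are log2 differences from the control. With CB-6644, ACTL6A was −0.19 in AsPC-1 and 0.17 in RH30, and ACTR6 was −0.21 in A-375, 0.37 in RH30 and 0.28 in T3M-4. H2AFZ was 0.091 in A-375, −0.20 in H1048 and 0.061 in RH30. INO80B was 0.26 in H1048 and −0.30 in RH30, and INO80D was −0.32 in A-375, −0.14 in H1048 and 0.23 in RH30. MBTD1 was 0.50 in A-375, −0.14 in H1048, 0.27 in RH30 and 0.39 in T3M-4. MORF4L2 was −0.26 in AsPC-1, 0.16 in T84, −0.28 in A-375, −0.23 in H1048 and −0.11 in RH30. UCHL5 was −0.34 in A-375, 0.13 in RH30 and −0.25 in T3M-4.

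With sgRUVBL1, ACTL6A was 0.16 in AsPC-1 experiment 3 and −0.18 in T3M-4, BRD8 was −0.26 in AsPC-1 experiment 2 and 0.27 in T3M-4, and DMAP1 was −0.19 and 0.48 in the same experiments. EP400 was −1.13 in CFPAC-1 and 0.98 in T3M-4, SRCAP −1.63 and 1.21, and TRRAP −1.06 and 0.65, and the T3M-4 calls of these 3 genes were lost under median-of-ratios scaling. INO80B was 0.25 in AsPC-1 experiment 2, −0.25 in CFPAC-1 and 0.23 in T3M-4, and UCHL5 was 0.53 in AsPC-1 experiment 3 and −0.23 in CFPAC-1. With sgRUVBL2, UCHL5 was 0.43 in AsPC-1 experiment 3 and −0.32 in T3M-4.

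With sgKLF5, ACTL6A was 0.38 in BxPC-3 experiment 2 and −0.22 in T3M-4 experiment 2, and ACTR5 was −0.40 in AsPC-1 experiment 1 and 0.47 in BxPC-3 experiment 2. H2AFZ was −0.23 in AsPC-1 experiment 1, 0.27 and 0.34 in BxPC-3 experiments 1 and 2, and −0.24 in T3M-4 experiment 2. MBTD1 was 0.39 in AsPC-1 experiment 3 and −0.46 in CFPAC-1. Of these pairs, the H2AFZ values of A-375 and RH30, the MORF4L2 value of T84, the ACTL6A values of RH30 and of AsPC-1 experiment 3, the BRD8 and INO80B values of T3M-4 and the UCHL5 value of RH30 turned below 0 under median-of-ratios scaling.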

How the results depend on the processing

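Of the 49 counts of members called, 49 stayed within 1.5 times under a pseudocount of 0.1, 47 without a filter and 41 under median-of-ratios scaling. That scaling changed the counts of AsPC-1 A62T against DMSO from 2 to 6, AsPC-1 empty vector from 18 to 29, AsPC-1 experiment 1 sgKLF5 from 5 to 8, T3M-4 experiment 1 sgKLF5 from 0 to 3, BxPC-3 experiment 2 sgRPA3 from 4 to 2, CFPAC-1 sgRPA3 from 1 to 4, T3M-4 experiment 2 sgRPA3 from 3 to 9 and T3M-4 dF109 against empty vector from 13 to 8. Without a filter, AsPC-1 A62T against DMSO went from 2 to 1 and BxPC-3 sgRUVBL2 from 2 to 1. With the DMSO library of the same vector as control, the A62T counts went to 0 in AsPC-1 and from 12 to 0 in T3M-4. In the compared groups alone, T3M-4 empty vector went from 13 to 6, BxPC-3 and CFPAC-1 sgRUVBL2 from 2 to 0, CFPAC-1 sgRUVBL1 from 13 to 7, and T3M-4 sgRUVBL1 and sgRUVBL2 from 22 to 14 and from 19 to 12.

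With the replicate number as a block, T3M-4 experiment 1 sgKLF5 went from 0 to 11, BxPC-3 sgRUVBL2 from 2 to 1, T3M-4 experiment 2 sgRPA3 from 3 to 5 and T3M-4 dF109 against empty vector from 13 to 24, and 39 of 43 counts stayed within 1.5 times. No comparison with 3 or more pairs had every same-number correlation over 0.1. No paired analysis was possible for CB-6644 against DMSO in AsPC-1 and T3M-4 because each vector had 1 DMSO library.

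Leaving out 1 library at a time, 291 of 359 counts stayed within 1.5 times. The ranges were 0 to 5 in AsPC-1 A62T and 6 to 13 in AsPC-1 dF109 against DMSO, 5 to 18 and 3 to 14 in those of T3M-4, 8 to 16 in T3M-4 empty vector and 6 to 16 in T3M-4 dF109 against empty vector. With sgKLF5 they were 2 to 9 in AsPC-1 experiment 1, 1 to 3 in BxPC-3 experiment 1, 0 to 8 and 4 to 8 in T3M-4 experiments 1 and 2, 1 to 6 in CFPAC-1 and 0 to 1 in SUIT-2. With sgRUVBL1 and sgRUVBL2 they were 4 to 8 and 0 to 7 in BxPC-3, and 6 to 15 and 0 to 4 in CFPAC-1. They were 1 to 6 in AsPC-1 sgCDK1, 1 to 5 in BxPC-3 sgRPA3, 0 to 2 in CFPAC-1 sgRPA3, 2 to 7 in T3M-4 sgCDK1 and 2 to 8 in sgRPA3. RUVBL1/2 against CDK1 or RPA3 loss gave 7 to 13 in T3M-4 and 3 to 14 in BxPC-3, and against KLF5 loss 11 to 19 in T3M-4.

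Of 521 gene values, median-of-ratios scaling removed 125 calls and turned 21 below 0. These were BRD8 and INO80 in T3M-4 A62T against DMSO (−0.0896 and −0.00338), BRD8 in T3M-4 dF109 against DMSO (−0.0142), ACTL6A in AsPC-1 experiment 3 sgRUVBL1 (−0.0254), BRD8 and INO80B in T3M-4 sgRUVBL1 (−0.0205 and −0.0466), MORF4L2 in T84 (−0.0336), EP400 and H2AFZ in A-375 (−0.10 and −0.13), BRD8, EPC1, INO80E and NFRKB in H1048 (−0.0594, −0.0569, −0.10 and −0.0021), ACTL6A, H2AFZ and UCHL5 in RH30 (−0.0032, −0.11 and −0.0375), ACTL6A and MORF4L1 in AsPC-1 RUVBL1/2 against KLF5 loss (−0.0401 and −0.0372), MORF4L2 in T3M-4 A62T and dF109 against empty vector (−0.11 and −0.0897) and YY1 in the latter (−0.0030). The cause was not tested. The pseudocount removed 2 calls, the missing filter 32 and the block 30 of 455. TPM carry no read depth, so the depth behind a low value such as INO80D is unknown.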
